A study of Rattus norvegicus with 6 samples.

Results

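The genes described here are the 10 FGF receptor and Sprouty feedback genes Fgfr1, Fgfr2, Fgfr3, Fgfr4, Fgfrl1, Fgf2, Spry1, Spry2, Spry4 and Spred1, taken by their symbols from the 18746 genes of the count table. All 10 were listed, and 8 of them passed the filter on low counts and were tested. They were measured by RNA sequencing of polyadenylated RNA in 3 libraries of cells transfected with an siRNA against NQO1 (siNQO1) and 3 libraries of cells transfected with a nontargeting siRNA (siCtrl), all labelled as the rat pheochromocytoma line PC12 and all grown in the same medium. The sample labels name an shRNA and a control plasmid in some fields, whereas the methods of the study describe siRNA duplexes. Both sources give the same grouping.

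Fibroblast growth factors are secreted ligands that bind receptor tyrosine kinases on the cell surface together with heparan sulfate. The receptor recruits the adaptor FRS2 and drives the RAS and ERK cascade, and ERK in turn induces the ETS factors of the ETV family and its own inhibitors. Sprouty and SPRED proteins are such inhibitors, which dampen RAS activation. FGF2 is known to drive neurite outgrowth in PC12 cells, and FGF receptors also act in neural crest derivatives such as Schwann cells.

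The label of the cells was set against marker genes. FPKM, the fragments per kilobase of transcript scaled to the mapped reads of the library, is the unit of level used here. Of 12 chromaffin cell markers, 9 stayed under 1 FPKM in every library and 2 were not analysed here. Th, which encodes the tyrosine hydroxylase of catecholamine synthesis, lay between 0.04 and 0.09 FPKM, and Chga, the granule protein chromogranin A, between 0.01 and 0.04 FPKM. The granule protein Scg2 was the exception, at 108.02 to 174.81 FPKM, and it was lower in siNQO1 (log2 fold change -0.59, adjusted p = 0.000836 from edgeR). Of 8 Schwann and glial markers, 1 stayed under 1 FPKM in every library, Mbp at 0.01 to 0.04 FPKM. Sox10 was at 192.45 to 232.81 FPKM and S100b at 169 to 250.36 FPKM. The summed level of the chromaffin markers was 166.6 to 175.9 FPKM in siCtrl and 108.9 to 119.9 FPKM in siNQO1. For the Schwann and glial markers it was 479.3 to 543.8 FPKM in siCtrl and 427.6 to 432.3 FPKM in siNQO1. Of the latter, 7 were tested, among which S100b and Erbb3 fell (log2 fold changes -0.45 and -0.43). Fibroblast markers summed to 107.8 to 112 FPKM in siCtrl and 94.99 to 105.8 FPKM in siNQO1, endothelial markers to at most 3.51 FPKM and macrophage markers to at most 24.43 FPKM in any library. These sums rest on few genes. In siCtrl the mean of Scg2 was 171 FPKM, those of the fibroblast markers Pdgfra and Twist1 were 50.7 and 55.7 FPKM, and that of the macrophage marker Cd14 was 22.8 FPKM. The fibroblast markers Col1a1, Col3a1 and Dcn stayed under 1 FPKM in every library. The part of these markers in the results below was not tested, and the cells are called the cells labelled PC12.

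The gene counts of a library summed to between 28873824 and 39467230 reads, and Nqo1, the targeted gene, fell to 22.6% of its siCtrl FPKM (log2 fold change -2.13). One library stood apart. The siCtrl replicate 2 correlated no better with the other siCtrl libraries (r = 0.986 and 0.989 across genes) than with the siNQO1 libraries (r = 0.989 to 0.99). The fold changes of the genes named below and the sums and shares of FPKM were therefore also computed without it, and those without it are given where a call or a sign changed. Among the markers, Sox10 passed without it (log2 fold change -0.165, adjusted p = 0.00785 from edgeR) and did not with all libraries (-0.10, adjusted p = 0.395). The labels do not say that the libraries are separate cultures, and the p-values then cover only how far these libraries spread, which may be technical. In RNA from a whole culture, fewer cells of a type and less RNA per cell cannot be told apart.

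After NQO1 knockdown, the receptor genes Fgfr3 and Fgfrl1 fell, and the other 6 tested genes did not pass the test. The test was the quasi-likelihood test of edgeR on the deposited counts, with p-values adjusted over the 12420 tested genes by the method of Benjamini and Hochberg and a threshold of 0.05 on the adjusted p. The 2 calls of 8 compare with 12.6% of all genes called in either direction, of which 7.38% were lower and 5.27% higher. Of the 8 genes, 5 had a negative log2 fold change, with a median of -0.16, against a median of 0.01 over all genes tested. In the 3 genes Fgfr3, Fgfrl1 and Spry4 the libraries of the groups did not overlap in scaled counts, which held for 34.2% of all genes. Each gene is described in turn, starting with the receptors.

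**Figure D1:**
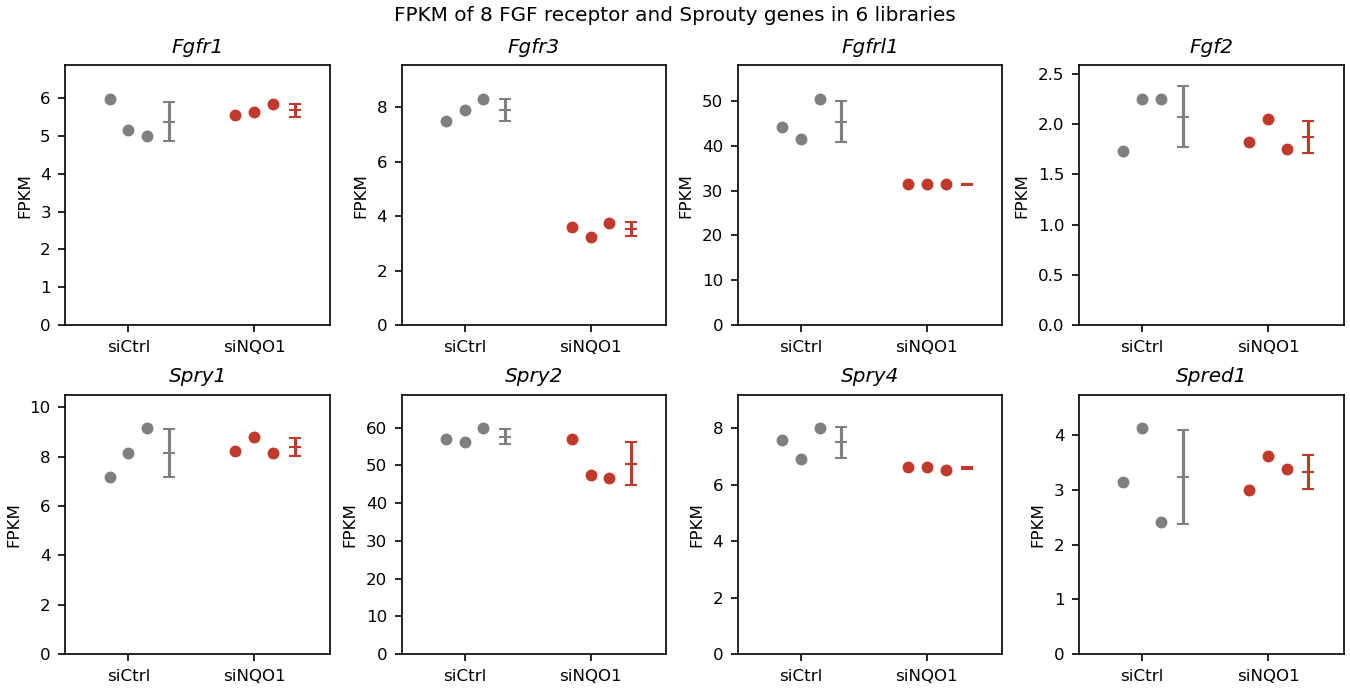
FPKM of the 8 tested genes in each library, 1 panel per gene, with the vertical axis in FPKM from 0. Gray points are the 3 siCtrl and red points the 3 siNQO1 libraries, and bars give the mean ± SD. Fgfr3 sits at 7.49 to 8.30 FPKM in siCtrl and 3.24 to 3.73 FPKM in siNQO1, and Fgfrl1 at 41.58 to 50.46 and 31.39 to 31.55 FPKM.

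Fgfr3 encodes a receptor tyrosine kinase for several FGFs that is known as a brake on bone growth and is expressed in glial cells. The gene (ENSRNOG00000016818, chromosome 14) was at 7.49, 7.89 and 8.30 FPKM in siCtrl replicates 1, 2 and 3 and at 3.6, 3.24 and 3.73 FPKM in siNQO1 replicates 1, 2 and 3. Every siNQO1 library thus lay below every siCtrl library. The counts behind these levels were 889, 1148 and 1207 reads in siCtrl and 497, 441 and 609 reads in siNQO1. The mean went from 7.89 ± 0.405 to 3.52 ± 0.254 FPKM (SD, n = 3), which left 44.6% of the control level. For the 3 libraries of each group the log2 fold change came to -1.15 (standard error 0.0876, 95% interval -1.35 to -0.95, adjusted p = 0.000359 from edgeR). It was the single one of the 10 genes to pass a fold of 2 as well, as did 0.193% of all genes tested in the direction of a fall. Without siCtrl replicate 2 the log2 fold change was -1.16, and with any 1 library left out it stayed between -1.21 and -1.10 with an adjusted p of at most 0.00571 from edgeR.

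Fgfrl1 encodes an FGF receptor-like protein that binds FGFs and heparin but lacks the intracellular tyrosine kinase domain. It was the most abundant receptor gene, with 44.19, 41.58 and 50.46 FPKM in siCtrl replicates 1, 2 and 3 and 31.41, 31.39 and 31.55 FPKM in siNQO1 replicates 1, 2 and 3. The groups did not overlap, and the siNQO1 libraries differed among themselves by far less than the siCtrl libraries. The mean fell from 45.4 ± 4.56 to 31.4 ± 0.0872 FPKM (SD, n = 3), to 69.3% of the control. The gene (ENSRNOG00000024207, chromosome 14) had a log2 fold change of -0.52 (standard error 0.0759, 95% interval -0.69 to -0.35, adjusted p = 0.0046 from edgeR). Leaving out siCtrl replicate 3, the highest library, moved it to -0.42, with an adjusted p of 0.00983 from edgeR, and leaving out siCtrl replicate 2 moved it to -0.58.

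Both genes that fell lie on chromosome 14, and whether they are regulated together was not tested. The 250 bases before their annotated starts are shown because these are the members that were called. They were taken from RefSeq on the GRCr8 build, which is a later build than the one the reads were aligned to, at chr14:81227210-81227459 for Fgfr3 and chr14:1166335-1166584 for Fgfrl1, both on the minus strand. The sequences run 5′ to 3′ in the direction of transcription, and capitals mark the GC box GGGCGG or its reverse complement CCGCCC.
Fgfr3: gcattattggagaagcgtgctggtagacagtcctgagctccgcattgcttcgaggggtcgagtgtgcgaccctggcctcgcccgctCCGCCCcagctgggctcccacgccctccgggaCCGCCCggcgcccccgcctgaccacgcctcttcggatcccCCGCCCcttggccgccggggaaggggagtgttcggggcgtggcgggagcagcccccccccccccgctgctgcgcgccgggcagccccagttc
Fgfrl1: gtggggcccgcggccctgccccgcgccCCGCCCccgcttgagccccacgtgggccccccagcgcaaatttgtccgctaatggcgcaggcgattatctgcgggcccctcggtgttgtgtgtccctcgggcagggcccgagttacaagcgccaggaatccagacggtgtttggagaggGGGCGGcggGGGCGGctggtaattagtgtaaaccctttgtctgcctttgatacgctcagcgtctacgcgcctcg

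Each stretch held 3 GC boxes, and 30.5% of the 33469 RefSeq promoter stretches of this length held at least 1. The share of all stretches that held 3 was not counted. Both were rich in G and C, with 74.4% in Fgfr3 and 67.2% in Fgfrl1 against a median of 51.2%. In the other members searched, this share was 76.8% in Fgfr2, 62.8% in Fgfr4, 60.8% in Spry1 and 64.8% in Spred1. Spry2 had 74.8% at its upstream and 61.6% at its downstream start, and Fgf2 had 46.8%. A high share was thus not particular to the genes that fell. The stretches of Fgfr2, Fgfr4, Spry1, Spred1 and the upstream start of Spry2 held 1 or 2 GC boxes. Those of Fgf2 and the downstream start of Spry2 held none. Searched on both strands, the antioxidant response element TGACNNNGC matched once in Fgfr3 and not in Fgfrl1 (10.1% of all stretches). It also matched once in Spry1 and once at the downstream start of Spry2, genes that did not pass the test. The E-box CACGTG matched once in Fgfrl1 and not in Fgfr3 (5.59%). The AP-1 motif TGANTCA, the CRE TGACGTCA and the ETS motif CCGGAAG matched in neither, and in 6.34%, 1.59% and 7.27% of all stretches. A match is a run of letters in this window and was not tested as a site.

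Genes next to the receptors were also measured. In the RefSeq gene order, the coding genes beside Fgfr3 are Letm1 and Tacc3, and both were lower in siNQO1 (log2 fold changes -0.32 and -0.47, adjusted p = 0.0298 and 0.00227 from edgeR). Idua, which lies beside Fgfrl1, was lower too (log2 fold change -0.32, adjusted p = 0.0304 from edgeR). Of the 16 nearest coding neighbors of the 8 tested genes, 11 were tested, with these 3 lower, 0 higher and 8 that did not pass in edgeR. Over all genes tested, 7.38% were lower and 5.27% higher, and 11 genes are too few to tell a regional change from these shares. One place further out, Plekha2 near Fgfr1 and Meis2 near Spred1 were higher (log2 fold changes 0.73 and 0.42, adjusted p = 0.000486 and 0.0443 from edgeR). Tacc3 and Plekha2 passed with any 1 library left out. Letm1 did not pass without siCtrl replicate 3 (adjusted p = 0.0846 from edgeR) or without siNQO1 replicate 1, 2 or 3 (0.0921, 0.0837 and 0.0715). Idua and Meis2 passed without siCtrl replicate 2 and did not pass with any other library left out (adjusted p = 0.057 to 0.119 and 0.132 to 0.186 from edgeR). Nudt6, which overlaps Fgf2 in the RefSeq annotation, was at a log2 fold change of 0.07.

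Fgfr1, the receptor tyrosine kinase best known for FGF2 signaling in neural cells, differed by less than the spread between replicates. It was at 5.98, 5.17 and 5.00 FPKM in siCtrl replicates 1, 2 and 3 and at 5.55, 5.63 and 5.86 FPKM in siNQO1 replicates 1, 2 and 3. The siNQO1 values all lay within the range of the siCtrl values. In edgeR the gene had a log2 fold change of 0.09 with a standard error of 0.0878 (adjusted p = 0.53), and its 95% interval of -0.11 to 0.29 is a fold of 0.928 to 1.22. The interval does not reach the change seen in Fgfr3 or Fgfrl1.

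**Figure D2:**
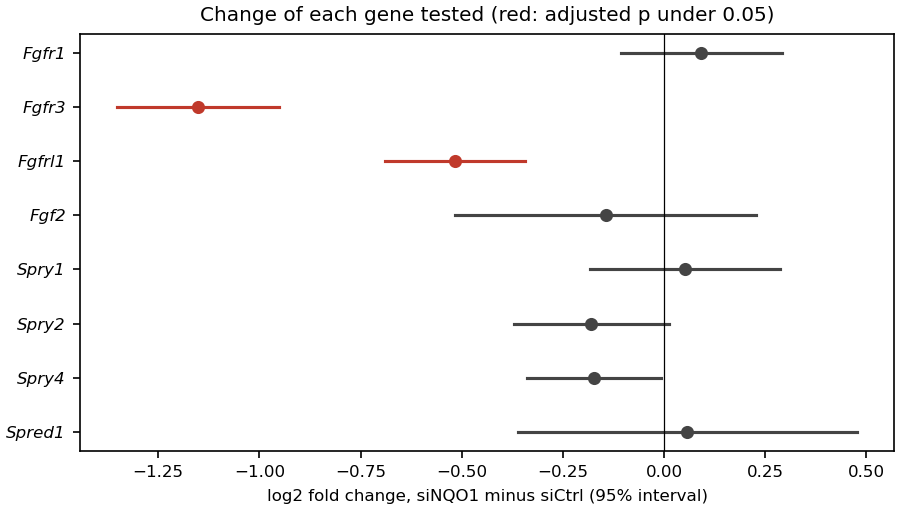
Log2 fold change of siNQO1 minus siCtrl for the 8 tested genes, 1 row per gene, from edgeR on 3 libraries per group. Points give the estimate and lines its 95% interval, in red where the adjusted p was under 0.05, which holds for Fgfr3 at -1.15 and Fgfrl1 at -0.52.

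The order of the kinase receptors turned over. Fgfr3 lay above Fgfr1 in each siCtrl library and below it in each siNQO1 library. Of the summed FPKM of Fgfr1 to Fgfr4, the share held by Fgfr3 was 55.4%, 60.4% and 62.2% in the siCtrl libraries and 39.3%, 36.5% and 38.7% in the siNQO1 libraries, in the order of their numbers. This is a mean of 59.3% ± 3.5 against 38.2% ± 1.47 (SD, n = 3). The summed level itself went from 13.3 ± 0.222 to 9.22 ± 0.384 FPKM (SD, n = 3), also without overlap. An exact permutation test (two-sided) returned p = 0.10 for both quantities, which is as low as 3 libraries against 3 can go, and 0.25 after adjustment over the 5 quantities of this kind that were compared. Without siCtrl replicate 2 the siCtrl means were 58.8% and 13.4 FPKM. The level of the kinase-free Fgfrl1 relative to this sum was 3.41 ± 0.324 in siCtrl and 3.42 ± 0.132 in siNQO1 (SD, n = 3; exact permutation p = 0.90). Without siCtrl replicate 2 the siCtrl mean of this ratio was 3.53, above that of siNQO1.

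**Figure D3:**
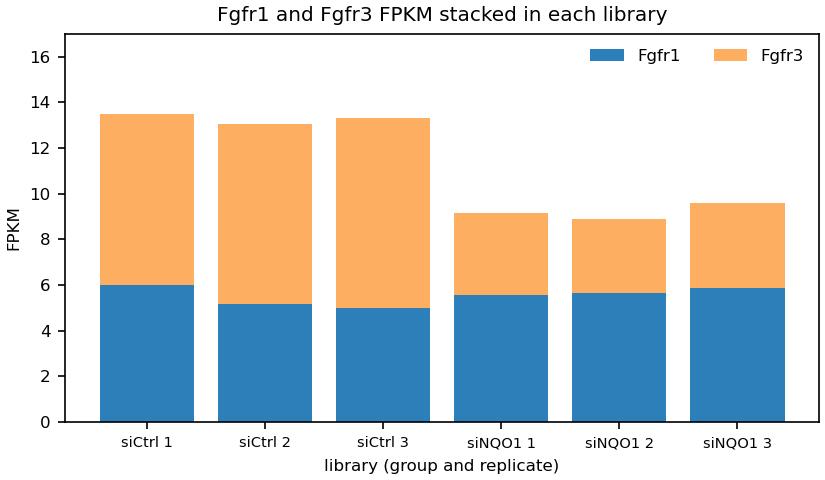
FPKM of Fgfr1 (blue) and Fgfr3 (orange) stacked in each of the 6 libraries. The Fgfr1 part stays between 5.00 and 5.98 FPKM, while the Fgfr3 part is 7.49 to 8.30 FPKM in siCtrl and 3.24 to 3.73 FPKM in siNQO1.

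Fgfr2 and Fgfr4, the receptors known for epithelial tissue and for liver, were barely detected in the cells labelled PC12. Fgfr2 had 0, 0 and 5 reads in siCtrl and 0, 0 and 1 reads in siNQO1 replicates 1, 2 and 3. A count of 0 allows up to 3 reads, which is 0.086 to 0.104 CPM, the reads scaled to the library total, in the libraries without Fgfr2 reads. Fgfr4 had 5, 2 and 2 reads in siCtrl and 1, 0 and 6 reads in siNQO1. Neither passed the filter on low counts, and a difference between the groups was not detectable at this depth. The 95% Poisson intervals of the group sums, which cover counting error only, were 1.62 to 11.7 reads against 0.0253 to 5.57 reads for Fgfr2 and 4.12 to 17.1 against 2.81 to 14.4 reads for Fgfr4.

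Fgf2, the one ligand among the 10 genes, was expressed at a low level in both groups. It was at 1.73, 2.25 and 2.25 FPKM in siCtrl replicates 1, 2 and 3 and at 1.82, 2.05 and 1.75 FPKM in siNQO1 replicates 1, 2 and 3, from 73 to 116 reads per library. The groups overlapped, with siCtrl replicate 1 the lowest of all. The log2 fold change was -0.14 (95% interval -0.52 to 0.23, adjusted p = 0.602 from edgeR). The interval is wider than that of the receptors, and a fall of the size of Fgfrl1 lies at its lower end. The strand setting of the counting is unknown, and reads of Fgf2 and of the overlapping Nudt6 may be shared.

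Among the feedback inhibitors, no change passed the test. Spry2, which binds GRB2 and CBL and was the most abundant of the 10 genes, was at 56.92, 56.27 and 59.84 FPKM in siCtrl replicates 1, 2 and 3. In siNQO1 replicates 1, 2 and 3 its level was 57.02, 47.45 and 46.81 FPKM, so that siNQO1 replicates 2 and 3 lay below all siCtrl libraries and replicate 1 lay among them. Its log2 fold change was -0.18 (95% interval -0.37 to 0.01, adjusted p = 0.198 from edgeR). Without siNQO1 replicate 1 it was -0.30 and passed (adjusted p = 0.0307 from edgeR), so its side of the threshold depended on 1 library.

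Spry4, a family member that restrains RAS activation, was at 7.58, 6.93 and 8 FPKM in siCtrl replicates 1, 2 and 3 and at 6.62, 6.62 and 6.54 FPKM in siNQO1 replicates 1, 2 and 3. All siNQO1 libraries lay below all siCtrl libraries, by a small margin from siCtrl replicate 2. Its log2 fold change was -0.17 (standard error 0.0729, 95% interval -0.34 to -0.01), and it did not pass after adjustment (unadjusted p = 0.0414, adjusted p = 0.153 from edgeR). Without siCtrl replicate 2 the log2 fold change was -0.24 and passed (adjusted p = 0.00845 from edgeR), in a fit that called 33.3% of all genes. Leaving out siCtrl replicate 3 instead gave -0.12 (adjusted p = 0.389 from edgeR).

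Spry1, the family member known for its part in kidney development, was at 7.19, 8.15 and 9.15 FPKM in siCtrl replicates 1, 2 and 3 and at 8.22, 8.81 and 8.15 FPKM in siNQO1 replicates 1, 2 and 3. The groups overlapped (log2 fold change 0.05, 95% interval -0.18 to 0.29, adjusted p = 0.783 from edgeR). Spred1, which recruits neurofibromin to the membrane, was at 3.15, 4.13 and 2.42 FPKM in siCtrl replicates 1, 2 and 3 and at 3, 3.62 and 3.38 FPKM in siNQO1 replicates 1, 2 and 3. Its siCtrl libraries spread more widely than the groups differed, and it had the largest biological coefficient of variation of the 8 genes, 0.166, against 0.0761 in Fgfrl1, the smallest. The log2 fold change of Spred1 was 0.06 (95% interval -0.36 to 0.48, adjusted p = 0.867 from edgeR), and it changed sign without siCtrl replicate 3 (-0.11) and without siNQO1 replicate 2 (-0.02). That of Spry1 changed sign without siCtrl replicate 1 (-0.05).

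The 3 Sprouty genes together were at 73.3 ± 3.16 FPKM in siCtrl and 65.4 ± 5.63 FPKM in siNQO1 (SD, n = 3; exact two-sided permutation p = 0.30). Spry2 made up 78.7% ± 0.855 of this sum in siCtrl and 77.0% ± 2.08 in siNQO1 (SD, n = 3; exact permutation p = 0.30). Adjusted over the 5 quantities, both p-values were 0.375 in this exact permutation test.

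By mean FPKM over the 6 libraries, the order of the 10 genes was Spry2, Fgfrl1, Spry1, Spry4, Fgfr3, Fgfr1, Spred1, Fgf2, Fgfr4 and Fgfr2. Spry2 lay above Fgfrl1, Fgfrl1 above Spry1, Fgfr1 above Spred1, Spred1 above Fgf2 and Fgf2 above Fgfr4 in 6 of 6 libraries. Spry1 and Spry4 could not be separated in siCtrl, where their ranges overlapped, nor could Spry4 and Fgfr3. In siNQO1 the ranges of these pairs were separate. Fgfr4 and Fgfr2 were not separate in either group.

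**Figure D4:**
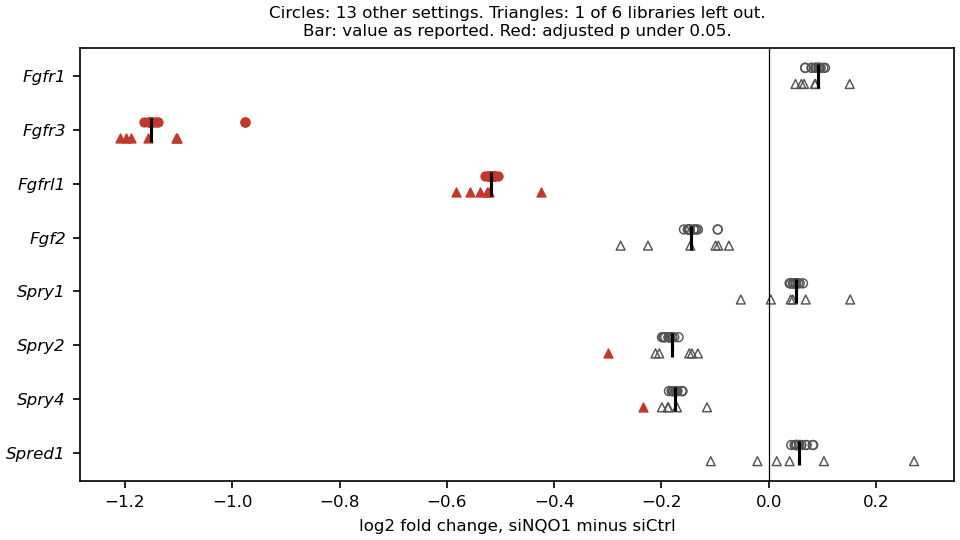
Log2 fold change of the 8 tested genes under 13 other settings (circles) and with 1 of 6 libraries left out (triangles). The black bar is the value as reported and red marks an adjusted p under 0.05. All marks of Fgfr3 and Fgfrl1 are red and below 0, while Spry2 and Spry4 have 1 red mark each.

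The other genes of the pathway were taken from 6 fixed lists, and most of them did not pass the test. The counts of each list stand beside 12.6% of all genes called, 7.38% lower and 5.27% higher. Whether a list differs from these shares was not tested. Of 17 secreted FGF ligands besides Fgf2, 9 had values and 2 passed the filter on low counts and were tested. Fgf9, a ligand made by neurons, was at 1.67 ± 0.163 FPKM in siCtrl and 2.07 ± 0.325 FPKM in siNQO1 (SD, n = 3), and did not pass (adjusted p = 0.206 from edgeR). Fgf1 stayed at 0.14 to 0.31 FPKM in all libraries (adjusted p = 0.671 from edgeR). The intracellular FGF homologous factors had 1 gene tested, Fgf11, which did not pass either.

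Of the co-receptors, binding proteins and heparan sulfate proteins, 19 were tested, 17 did not pass, 2 were higher and none was lower, with a median log2 fold change of 0.06. Flrt3, a membrane protein that binds FGF receptors, rose from 1.26 ± 0.488 to 3.25 ± 0.270 FPKM (SD, n = 3), by 1.37 on the log2 scale (adjusted p = 0.00739 from edgeR). Gpc1, an abundant glypican that carries heparan sulfate, rose from 302 ± 18.1 to 356 ± 8.99 FPKM (SD, n = 3), by 0.25 on the log2 scale (adjusted p = 0.0348 from edgeR). Flrt3 did not pass in edgeR without siNQO1 replicate 2 (adjusted p = 0.0577). Gpc1 did not pass in edgeR without siCtrl replicate 1 (adjusted p = 0.0638) or without siNQO1 replicate 1, 2 or 3 (adjusted p = 0.1, 0.0861 and 0.103).

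Of 23 receptor adaptors and kinases of the ERK cascade, 20 did not pass, 3 were lower and none was higher, with a median log2 fold change of -0.03, and 2 of the lower genes are described. Mapk3, which encodes ERK1, went from 466 ± 35.9 to 374 ± 6.98 FPKM and the adaptor Shc1 from 62.2 ± 4.66 to 50.7 ± 2.17 FPKM (SD, n = 3; log2 fold changes -0.31 and -0.28). Their adjusted p-values were 0.0219 and 0.0277 from edgeR. The FGF receptor adaptor Frs2 did not pass, with a log2 fold change of -0.04 that changed sign without siCtrl replicate 2 (0.07). Mapk3 did not pass in edgeR without siCtrl replicate 3 or without siNQO1 replicate 1, 2 or 3 (adjusted p = 0.0693, 0.054, 0.0697 and 0.055), nor Shc1 without siCtrl replicate 3 or siNQO1 replicate 2 or 3 (adjusted p = 0.0832, 0.0967 and 0.0808).

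Of 15 other inhibitors of FGF and RAS signaling, Dusp4, a nuclear phosphatase of ERK, was lower and 14 did not pass. Dusp4 went from 26.0 ± 1.82 to 21.2 ± 0.558 FPKM (SD, n = 3; log2 fold change -0.28, adjusted p = 0.0191 from edgeR). It did not pass in edgeR without siNQO1 replicate 2 or 3 (adjusted p = 0.0797 and 0.0617). Dusp6, the cytoplasmic ERK phosphatase induced by FGF signaling, was at 37.7 ± 2.01 FPKM in siCtrl and 33.5 ± 3.6 FPKM in siNQO1 (SD, n = 3; log2 fold change -0.16, adjusted p = 0.251 from edgeR). The median of the 15 genes was 0.03.

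Of 15 transcriptional outputs of ERK signaling tested, 3 were lower, 2 were higher and 10 did not pass, with a median log2 fold change of -0.11. Etv5, an ETS factor induced by FGF signaling, fell from 52.2 ± 2.22 to 40.3 ± 2.13 FPKM (SD, n = 3; log2 fold change -0.36, adjusted p = 0.00766 from edgeR). Its relatives Etv1 and Etv4 did not pass (log2 fold changes 0.05 and 0.14). The immediate early genes Ier3 and Egr2 fell (log2 fold changes -0.38 and -0.40, adjusted p = 0.00714 and 0.0371 from edgeR). The AP-1 subunit Junb and the cyclin Ccnd1 rose by 0.28 and 0.23 on the log2 scale (adjusted p = 0.0166 and 0.0307 from edgeR). Etv5 and Ier3 passed with any 1 library left out. Junb did not pass in edgeR without siNQO1 replicate 1, 2 or 3 (adjusted p = 0.0568, 0.0649 and 0.0598). Ccnd1 did not pass without siCtrl replicate 3 or siNQO1 replicate 1, 2 or 3 (adjusted p = 0.0601, 0.102, 0.0853 and 0.089 from edgeR), nor Egr2 without the same libraries (adjusted p = 0.107, 0.0568, 0.148 and 0.136 from edgeR).

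**Figure D5:**
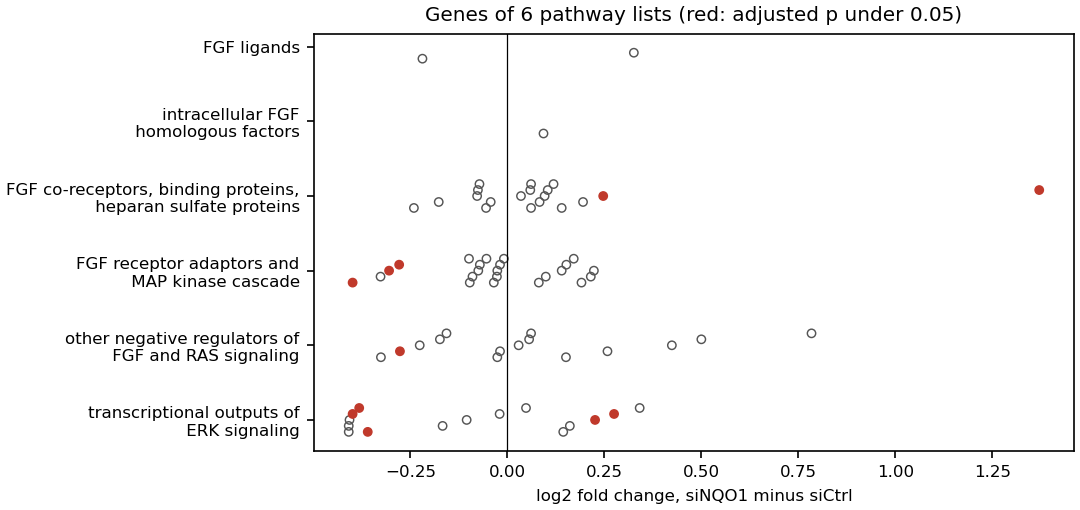
Log2 fold change of siNQO1 minus siCtrl for the tested genes of 6 pathway lists, 1 row per list, with points shifted vertically so that they can be told apart. Red points have an adjusted p under 0.05. Most points are open, and the rightmost is Flrt3 at 1.37.

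The genes whose log2 CPM followed Fgfr3 and Fgfrl1 most closely over the 6 libraries are given as a description. For Fgfr3 these included Pole3, Pcnx, Cep41 and the phosphatase Cdc25c, with Pearson correlations of 0.995 to 0.997. For Fgfrl1 they were Penk, which encodes proenkephalin, S100a13, Isca2, Mospd3 and Ramp1, with correlations of 0.996 to 0.998. The 6 points fall into 2 groups and share their libraries, and of 11096 genes compared, 28 exceeded 0.99 with Fgfr3 and 17 with Fgfrl1. Of these genes, Pcnx and Penk had log2 fold changes of -0.57 each, and Isca2 was at -0.226. Pole3 and S100a13 did not pass (log2 fold changes -0.138 and -0.161, adjusted p = 0.0974 and 0.151 from edgeR). Without siCtrl replicate 2, Pole3 passed (log2 fold change -0.136, adjusted p = 0.0445 from edgeR).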

How the data were processed

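Polyadenylated RNA was sequenced by the authors as paired reads from a library kit that keeps strand. Reads were trimmed and aligned to the RGSC6 genome with TopHat2, and uniquely mapped reads were used. From these the authors made a table of raw counts per gene, which was used for all tests, and a table of FPKM, deposited with 2 decimals, which was used for levels. The strand setting of the counting is not given in the sources used here. The members and lists were chosen with earlier results of these data known.

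The comparison was fitted to the counts with edgeR 4.0.16 under R 4.3.3 (filterByExpr, TMM, glmQLFit and glmQLFTest, Benjamini-Hochberg over 12420 genes), with siNQO1 against siCtrl as the comparison and all 6 libraries in the fit. The fit was tested on simulated data. Alternatives were other scalings, filters and tests, DESeq2 1.42.0, limma 3.58.1 on counts and on log2(FPKM + 1) or log2(FPKM + 0.1), a block, and leaving out each library, which for neighbors, markers, uncalled genes of the lists, sums and shares was chosen after seeing the data. All 10 members were named. Some other genes that the naming rule selects are not reported here. From each list up to 4 genes with the smallest adjusted p among those called were named, and for each called member the 5 genes of closest pattern with an average log2 CPM over 0. Others in counts of 5 or fewer, markers, neighbors, Frs2, Dusp6, Etv1, Etv4, Fgf1, Fgf9 and Fgf11 were named after their values were seen. Promoter letters came from RefSeq (GRCr8), with entries for 9 of the 10 members, of which 8 were searched for motifs (not Spry4).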

Additional observations from a re-analysis of the deposited data

How the results depend on the processing

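Fgfr3 and Fgfrl1 were called under all 13 other settings, with log2 fold changes from -1.16 to -0.98 and from -0.53 to -0.51, and with any 1 library left out. The other 6 tested members were called in none of the 13. At a fold over 2, 1 member and 54 genes were called. With limma on log2(FPKM + 1) and no filter, 990 genes were called. With 1 library left out, 2 to 3 members and 518 to 4200 genes were called in place of 1571, namely 1008, 4200 and 749 genes without siCtrl replicates 1, 2 and 3 and 722, 518 and 612 genes without siNQO1 replicates 1, 2 and 3, so the background share moves with the libraries used. The cause was not tested. The log2 fold change of Spred1 ranged from -0.108 to 0.271 and that of Spry1 from -0.052 to 0.152 with 1 library left out, with sign changes (Spred1 at -0.108 and -0.021, Spry1 at -0.052) and no call in any of these fits. With the replicate number as a block, 2 members (Fgfr3 and Fgfrl1) and 1350 genes were called, and of the genes named Ccnd1, Egr2 and Isca2 were not called (adjusted p = 0.0516, 0.0672 and 0.0559 from edgeR). The deviations of same-numbered libraries correlated at -0.0383, 0.161 and 0.0568 and not every library correlated best with its own number. With 3 libraries per group, these values cannot decide whether same-numbered libraries were handled together, which the labels do not say. With limma on log2(FPKM + 1) and no filter, Gpc1, Shc1 and Egr2 were not called either. The depth limits Fgfr2 and Fgfr4, which rest on 6 and 16 reads over all libraries.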
